A study of Homo sapiens with 6 samples.

Results

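The genes described here encode matrix metalloproteinases (MMPs) and the tissue inhibitors of metalloproteinases (TIMPs). The set holds the 6 proteases MMP1, MMP2, MMP3, MMP7, MMP9 and MMP14 and the 4 inhibitors TIMP1 to TIMP4. They were taken from a list of names, and all 10 were measured, among 19775 genes in all, by 20 probe sets that the array annotation assigns to a single gene. No probe set of the 10 genes was shared with another gene, and no filter on low values was applied.

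The study transfected MDA-MB-231 cells, an established human breast cancer line of basal, mesenchymal type, with siRNA (small interfering RNA) directed at SDC1, and other cultures with a control siRNA. Syndecan-1, the product of SDC1, is a proteoglycan of the cell surface that carries heparan sulfate. Each group had 3 independent replicates, and every sample was hybridised to its own Affymetrix array. The siRNA sequences, dose and time of harvest are not given in the labels, and untransfected cells were not analysed here.

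MMPs are zinc-dependent endopeptidases that cleave matrix proteins and the extracellular parts of membrane proteins. Most are secreted as inactive proenzymes and gain activity once their propeptide is removed, often by plasmin or by another MMP, while TIMPs block the active site. Syndecan-1 itself is released from the cell surface by such proteases, among them MMP7, MMP9 and MMP14, and MMP1 is known as a collagenase of invasive breast cancer cells.

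Values are on a log2 scale with each probe set's median across the 6 arrays set to 0, and they hold differences between arrays, not levels. Fold changes are SDC1 siRNA minus control siRNA on the log2 scale, with the standard error (SE) and 95% confidence interval of limma's moderated fit and n = 3 per group. A gene was called past an adjusted p of 0.05 (Benjamini-Hochberg over all genes). Of all genes tested, 28.2% passed, 15.2% lower and 13.0% higher after SDC1 siRNA, with a median log2 fold change of 0.00. SDC1 transcript was at -1.14, -1.16 and -1.43 in the 3 SDC1 siRNA arrays, against 1.13, 1.32 and 1.09 in the control siRNA arrays, which left 18.7% of the control transcript. Its 2 probe sets both fell, with log2 fold changes of -2.14 and -2.70, but they order the SDC1 siRNA arrays differently, the first being lowest in replicate 3 (-1.48) and the second in replicate 1 (-1.41). The poly-A spike-in controls read higher in SDC1 siRNA replicates 1 and 2 and control replicate 1 (means from 0.35 to 0.60) than in the other 3 arrays (-0.41 to -0.38). These sets are called array batches 1 and 2 below, a name read from the values since the labels give no batch. All 5 markers of the line (VIM, CD44, EGFR, CAV1 and AXL) lay in the brightest of the 3 brightness classes that the values allow. The classes are log2 levels of 2 to 4, 4 to 8 and 8 to 16. The brightest also held 0 of 5 leukocyte markers, 1 of 6 fibroblast markers, 5 of 6 luminal markers and 3 of 4 endothelial markers (KDR, PECAM1 and VWF). The class therefore does not tell the line from luminal or endothelial cells.

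Silencing of SDC1 was accompanied by lower transcript of the proteases MMP1 and MMP3 and higher transcript of the inhibitors TIMP2 and TIMP3. MMP1 was at 17.5% of its control level and MMP3 at 36.6%, while TIMP3 rose 1.57-fold and TIMP2 1.28-fold. The other 6 genes, which include the syndecan sheddases MMP7, MMP9 and MMP14 and the gelatinase MMP2, did not pass the threshold. Thus 4 of 10 members were called, 2 lower and 2 higher, against 28.2% of all genes, and the groups of arrays did not overlap for 4 of 10 members, against 41.8% of all genes. The 4 called members were among the 6 in the brightest class, in which 41.5% of all genes were called. The members' median log2 fold change was 0.05, with a range from -2.51 to 0.65.

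**Figure D1:**
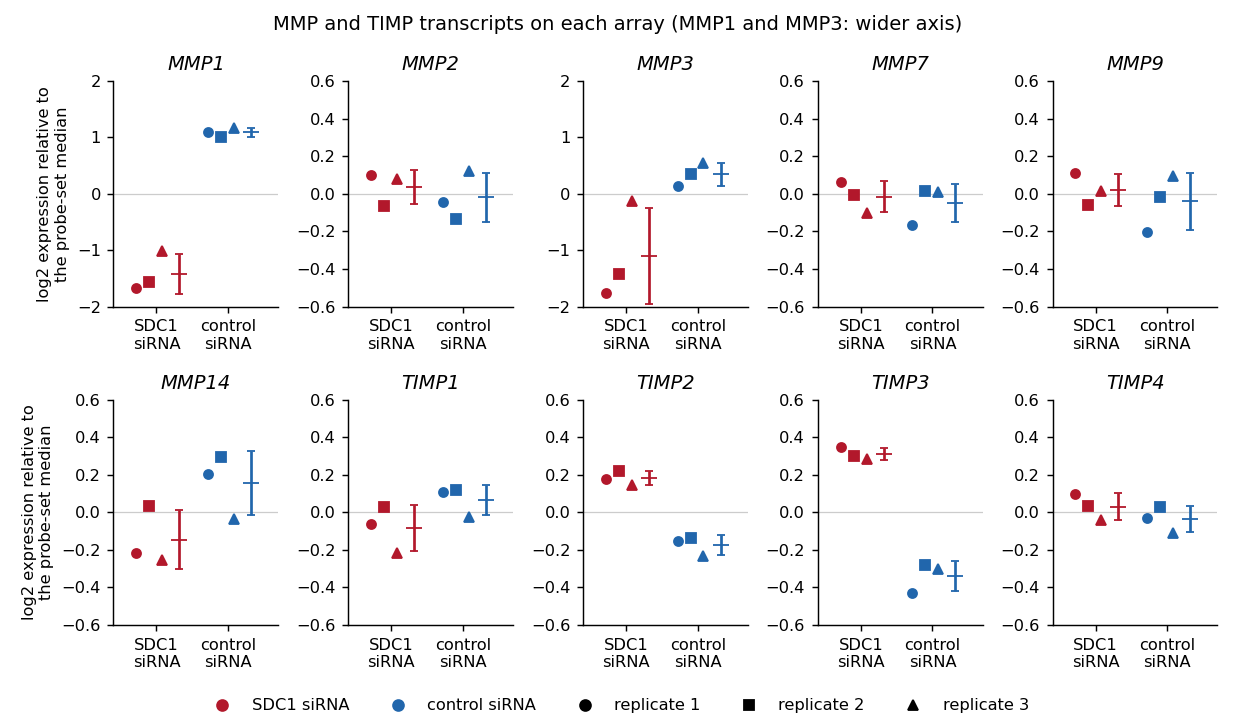
Log2 expression of the 10 genes relative to the median of their probe sets (vertical axis) on each array, SDC1 siRNA in red and control siRNA in blue, with the mean and SD of 3 arrays beside the points. MMP1 and MMP3 are lower and TIMP2 and TIMP3 higher in SDC1 siRNA cells with no overlap between the groups, and MMP3 in SDC1 siRNA replicate 3 (-0.14) lies near control replicate 1 (0.14).

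MMP1 is the interstitial collagenase, which cuts fibrillar collagens. It was at -1.68, -1.57 and -1.02 in SDC1 siRNA cells, against 1.09, 1.02 and 1.17 in control siRNA cells. The groups lay far apart, and the smallest loss was in SDC1 siRNA replicate 3. The means were -1.42 ± 0.36 and 1.09 ± 0.08 (SD, n = 3 each). MMP1 fell by 2.51 on the log2 scale (SE 0.154, 95% confidence interval -2.86 to -2.16, limma adjusted p = 1.23e-05), the 10th largest fall of all genes. Its log2 fold change was -2.71 within array batch 1 and -2.11 within batch 2. In each batch one of the groups is a single array. A change in every cell and a change in the share of cells that make the transcript cannot be told apart in such bulk samples.

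MMP3, or stromelysin-1, degrades many matrix proteins and activates the proenzyme of MMP1. MMP3 was at -1.77, -1.41 and -0.14 in SDC1 siRNA cells, against 0.14, 0.35 and 0.54 in control siRNA cells. SDC1 siRNA replicate 3 stood apart from replicates 1 and 2 and was the one nearest to the controls, so that the SD was 0.857 in the SDC1 siRNA group and 0.203 in the control siRNA group. MMP3 fell by 1.45 on the log2 scale (SE 0.355, 95% confidence interval -2.26 to -0.64, limma adjusted p = 0.0152). The size rests on that array, at -1.93 (adjusted p = 0.000204) without it. It was also -1.73 within batch 1 and -0.59 within batch 2, where the third array is the only one with SDC1 siRNA, and whether the batches differ was not tested. The call was lost without SDC1 siRNA replicate 2 (adjusted p = 0.0525) and without control replicate 3 (adjusted p = 0.0530). In the fit over all probe sets, the 1 probe set of MMP3 kept its call in 8 of 13 alternative settings.

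MMP1 and MMP3 stand side by side in a run of 9 MMP genes on chromosome 11 with no other protein-coding gene between them, in the order MMP7, MMP20, MMP27, MMP8, MMP10, MMP1, MMP3, MMP12 and MMP13. Beyond MMP1 and MMP3, the neighbour MMP12 was lower and MMP13, at the end of the run, was higher. MMP12, the macrophage elastase, was at -0.25, -0.08 and -0.04 in SDC1 siRNA cells, against 0.24, 0.26 and 0.04 in control siRNA cells. The groups did not overlap, but the gap between the nearest arrays was small, and the probe set is of the dimmest class, in which 4.89% of all genes were called and 1.81% were lower. MMP12 fell by 0.30 on the log2 scale (SE 0.0842, limma adjusted p = 0.0266), and the call was lost in 8 of 13 alternative settings, with adjusted p up to 0.441. MMP13, a collagenase of cartilage and bone, was at 0.06, 0.27 and 0.20 in SDC1 siRNA cells, against -0.38, -0.30 and -0.06 in control siRNA cells. It rose by 0.42 on the log2 scale (SE 0.0955, limma adjusted p = 0.0104; 0.0524 within batch 1 and 0.152 within batch 2), opposite in sign to MMP12, MMP3 and MMP1. The remaining genes of the run did not pass, with log2 fold changes from -0.12 for MMP8 to 0.12 for MMP20. Of the 9 genes, 5 were in the dimmest class (MMP7, MMP20, MMP27, MMP10 and MMP12), and presence of these transcripts was not tested.

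**Figure D2:**
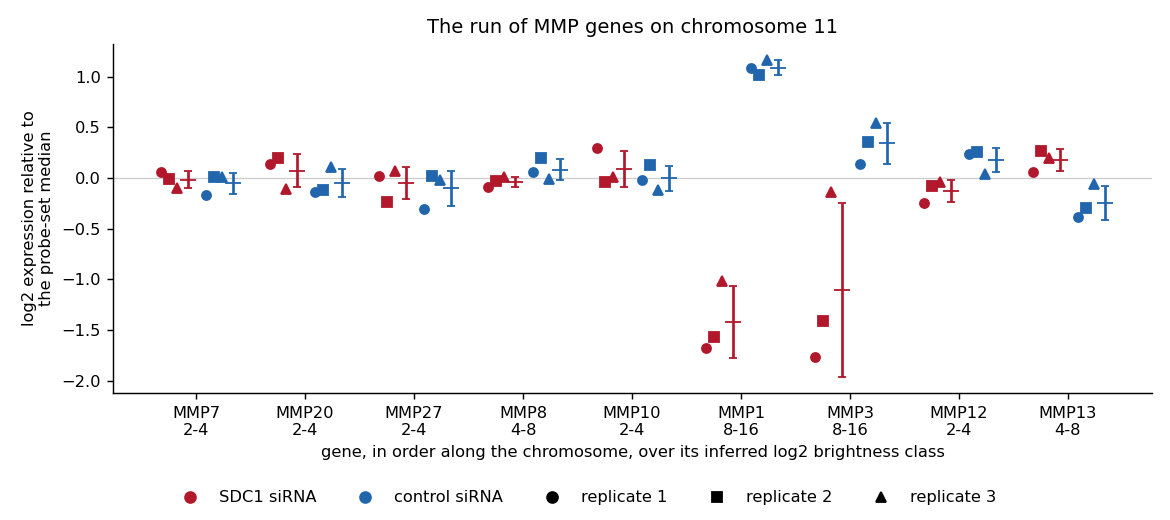
Log2 expression relative to the probe-set median (vertical axis) of the 9 MMP genes of chromosome 11 in their order along it, with the mean and SD of 3 arrays beside the points and the brightness class, as a range of log2 levels, under each name. The separation of SDC1 siRNA (red) from control siRNA (blue) is wide at MMP1 and MMP3, while the neighbour MMP10 has a log2 fold change of 0.09.

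Among the syndecan sheddases of the set, MMP7 (matrilysin) and MMP9 (gelatinase B) had values that overlapped between the groups. Each was measured by 1 probe set. That of MMP7 is of the dimmest class, in which 4.89% of all genes were called, and that of MMP9 of the middle class. Presence of these transcripts was not tested. MMP7 was at 0.06, -0.01 and -0.10 in SDC1 siRNA cells, against -0.17, 0.01 and 0.01 in control siRNA cells. Its log2 fold change was 0.03 (95% confidence interval -0.14 to 0.21, limma adjusted p = 0.786). MMP9 was at 0.11, -0.06 and 0.02 in SDC1 siRNA cells, against -0.20, -0.02 and 0.10 in control siRNA cells, and its log2 fold change was 0.06 (95% confidence interval -0.14 to 0.26, limma adjusted p = 0.665).

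The promoter of MMP7 is shown because it holds the kind of AP-1 element through which inducible MMP genes are known to be switched on, although its transcript did not pass the test. The 250 bases before its start (RefSeq, GRCh38.p14, chr11:102530748-102530997, minus strand) are given 5′ to 3′, with capitals marking an AP-1 motif (TGAGTCA or its reverse complement) that begins 67 bases before the start and a TATA box (TATAAA or its reverse complement) that begins 30 bases before it.
MMP7: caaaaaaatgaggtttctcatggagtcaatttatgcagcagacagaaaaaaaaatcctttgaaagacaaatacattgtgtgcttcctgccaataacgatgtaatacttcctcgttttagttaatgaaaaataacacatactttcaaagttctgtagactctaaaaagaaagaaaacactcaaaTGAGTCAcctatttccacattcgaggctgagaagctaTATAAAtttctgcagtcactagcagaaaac
The AP-1 motif was found in 4.2% and the TATA box in 10.7% of 35116 promoter windows of that length. Promoters of 5 of the 10 members were available (MMP7, MMP14, TIMP1, TIMP3 and TIMP4). Exact matches to these 2 motifs were found in none of them other than MMP7. Variants that differ in a letter were not searched, so AP-1 elements of other spelling are not excluded.

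MMP14 is a membrane-anchored MMP that cleaves collagen at the cell surface and activates the proenzyme of MMP2 with the help of TIMP2. Its brightest probe set (202827_s_at) was at -0.22, 0.03 and -0.25 in SDC1 siRNA cells, against 0.20, 0.30 and -0.03 in control siRNA cells. The second SDC1 siRNA array lay above the third control array, so the groups overlapped. The log2 fold change was -0.30 (95% confidence interval -0.54 to -0.06, limma adjusted p = 0.0691). A dimmer probe set (202828_s_at) was at -0.10, -0.10 and -0.09 in SDC1 siRNA cells, against 0.09, 0.16 and 0.13 in control siRNA cells, with no overlap. It fell by 0.23 on the log2 scale (SE 0.0663, limma adjusted p over all probe sets = 0.0412), a call kept in 2 of 13 alternative settings. The other MMP14 probe sets, 160020_at and 217279_x_at, gave -0.07 and 0.05, with adjusted p of 0.639 and 0.694, so the 4 probe sets of this gene differ in sign. For the gene value the adjusted p was 0.0311 without SDC1 siRNA replicate 2 and 0.0259 without control replicate 3, and the log2 fold change was -0.14 with all 4 probe sets averaged.

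MMP2, the gelatinase A that MMP14 activates, had a gene value of 0.10, -0.07 and 0.08 in SDC1 siRNA cells, against -0.05, -0.13 and 0.12 in control siRNA cells. The groups overlapped and the log2 fold change was 0.06 (95% confidence interval -0.13 to 0.25, limma adjusted p = 0.676). Its dimmest probe set (1566677_at), left out of the gene value, had groups that did not overlap and a log2 fold change of 0.28 (limma adjusted p = 0.0946).

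TIMP3 is the inhibitor that stays bound to the matrix through sulfated glycosaminoglycans, and it inhibits ADAM17 beside MMPs. It was at 0.35, 0.30 and 0.29 in SDC1 siRNA cells, against -0.43, -0.28 and -0.30 in control siRNA cells. The arrays of each group lay close together and the groups far apart, with means of 0.31 ± 0.03 and -0.34 ± 0.08 (SD, n = 3 each). TIMP3 rose by 0.65 on the log2 scale (SE 0.0639, 95% confidence interval 0.50 to 0.80, limma adjusted p = 0.000138), and by 0.75 and 0.58 within array batches 1 and 2. All 4 of its probe sets rose, by 0.54 to 0.74, the largest rise being that of 201149_s_at, which was at 0.32, 0.28 and 0.34 in SDC1 siRNA cells, against -0.67, -0.33 and -0.28 in control siRNA cells. The third SDC1 siRNA array, which stood apart for MMP3, did not for TIMP3.

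The promoter of TIMP3, the inhibitor that rose most, is shown beside that of TIMP1, which did not pass, to set their GC boxes side by side. The 250 bases before the start (RefSeq, GRCh38.p14, chr22:32801455-32801704 and chrX:47582186-47582435, plus strand) are given 5′ to 3′ with GC boxes (GGGCGG or its reverse complement) in capitals.
TIMP3: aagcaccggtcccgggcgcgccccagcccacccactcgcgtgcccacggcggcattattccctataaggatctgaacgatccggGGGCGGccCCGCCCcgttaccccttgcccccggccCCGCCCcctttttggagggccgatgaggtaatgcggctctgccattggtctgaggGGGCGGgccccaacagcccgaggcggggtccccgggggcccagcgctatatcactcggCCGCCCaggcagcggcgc
TIMP1: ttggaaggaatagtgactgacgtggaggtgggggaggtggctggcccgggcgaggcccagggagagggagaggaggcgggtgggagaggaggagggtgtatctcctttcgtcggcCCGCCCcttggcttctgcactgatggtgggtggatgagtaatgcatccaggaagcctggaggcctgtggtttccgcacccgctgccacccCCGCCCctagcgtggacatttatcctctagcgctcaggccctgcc
TIMP3 held 5 GC boxes and TIMP1 held 2, none of which overlapped another motif searched, and 42.6% of the 35116 windows held at least 1. Of the other available promoters, those of TIMP4 and MMP14 held 1 each and that of MMP7 held 0, and these genes did not pass. The counts describe letters and not sites of binding, and a link to the change in transcript was not tested.

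TIMP2 inhibits MMPs and also bridges MMP14 to the proenzyme of MMP2 on the cell surface. It was at 0.18, 0.22 and 0.14 in SDC1 siRNA cells, against -0.15, -0.14 and -0.23 in control siRNA cells. The groups did not overlap, and the SD was 0.0384 in the SDC1 siRNA group and 0.0509 in the control siRNA group. TIMP2 rose by 0.36 on the log2 scale (SE 0.0595, 95% confidence interval 0.22 to 0.49, limma adjusted p = 0.00233). Its middle-class probe set (203167_at), left out of the gene value, rose by 0.27, a call kept in 3 of 13 alternative settings. The other 2 rose by 0.35 and 0.36, each with the call kept in 11 of 13. All 3 probe sets of TIMP2 passed in the main fit. Within batches 1 and 2 its log2 fold change was 0.35 and 0.33, where the smaller numbers of arrays gave adjusted p of 0.0672 and 0.131.

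TIMP1, a secreted inhibitor that also acts on cell growth, was at -0.06, 0.03 and -0.22 in SDC1 siRNA cells, against 0.11, 0.12 and -0.03 in control siRNA cells. The groups overlapped and its log2 fold change was -0.15 (95% confidence interval -0.33 to 0.03, limma adjusted p = 0.210). TIMP4 was at 0.10, 0.03 and -0.04 in SDC1 siRNA cells, against -0.03, 0.03 and -0.11 in control siRNA cells, with a log2 fold change of 0.07 (95% confidence interval -0.09 to 0.22, limma adjusted p = 0.528).

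Across the 20 probe sets of the 10 genes, 7 were higher, 3 lower and 10 not past the threshold, whereas 19.8% of all 54613 probe sets were called, 9.7% higher and 10.1% lower. The 7 that rose were all those of TIMP2 and TIMP3, and the 3 that fell were 1 each of MMP1, MMP3 and MMP14. Probe sets of 1 gene share their transcript and are not independent measurements.

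**Figure D3:**
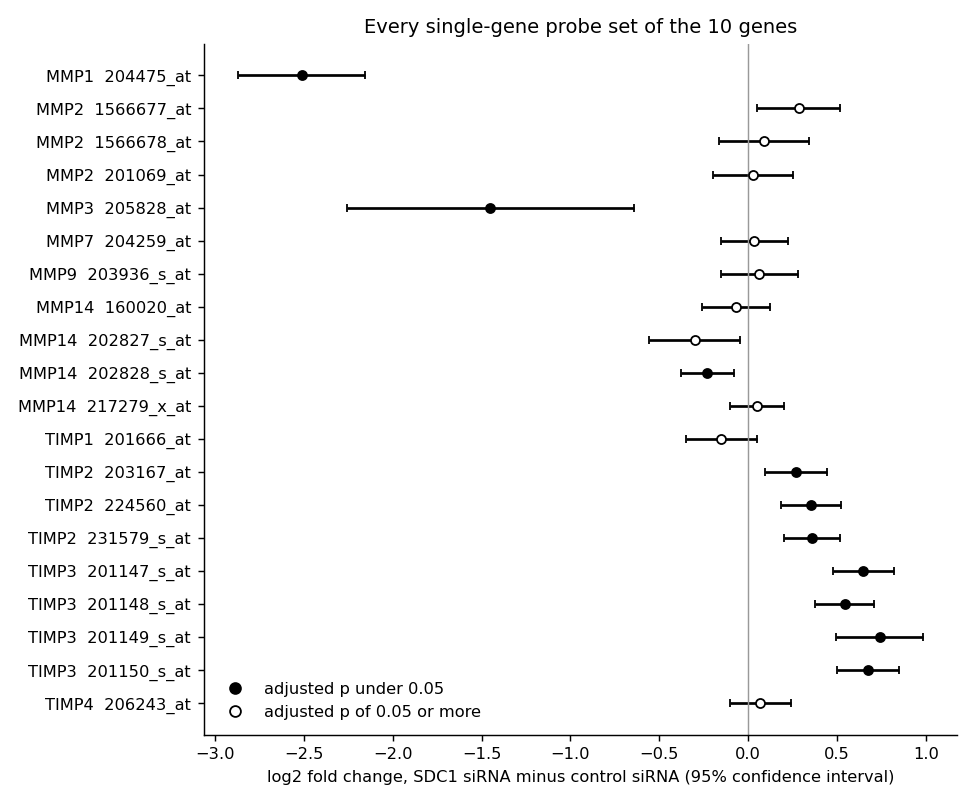
Log2 fold change, SDC1 siRNA minus control siRNA, with its 95% confidence interval (horizontal axis) for each of the 20 single-gene probe sets, filled where the adjusted p was under 0.05. The 4 TIMP3 probe sets lie between 0.54 and 0.74 and the 4 MMP14 probe sets on both sides of 0.

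Of all genes, those nearest to MMP1 in their values over the 6 arrays were IL1A, ALOX5AP, PTGS2, CXCL11, IL24 and ST8SIA4. Nearness was the root mean square difference of the log2 values over the 6 arrays, a description that carries no test. Likeness of these genes to MMP1 in array pattern and fold change follows from that choice. The nearest was IL1A, encoding interleukin-1 alpha, a cytokine that induces MMP1 and MMP3 in many cells, at a difference of 0.071. IL1A was at -1.54, -1.60 and -0.98 in SDC1 siRNA cells, against 1.01, 0.98 and 1.13 in control siRNA cells. SDC1 siRNA replicate 3 was the least reduced, as it was for MMP1 and MMP3, and this holds for its bright probe set, the dimmer one having a log2 fold change of 0.21 (adjusted p = 0.176). Next came ALOX5AP, which serves leukotriene synthesis, at 0.130, the inducible cyclooxygenase PTGS2 at 0.156, the chemokine CXCL11 at 0.162, the cytokine IL24 at 0.194 and the sialyltransferase ST8SIA4 at 0.227. These 6 genes had log2 fold changes from -2.27 for IL24 to -2.45 for CXCL11.

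**Figure D4:**
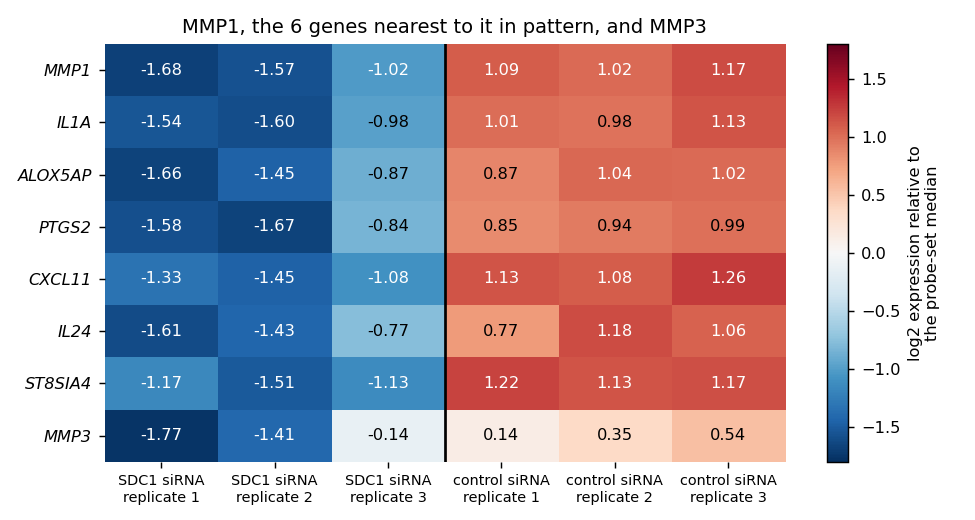
Log2 expression relative to the probe-set median (colour and printed values) on the 6 arrays for MMP1, the 6 genes nearest to it and MMP3. In SDC1 siRNA replicate 3 MMP1 (-1.02), IL1A (-0.98) and MMP3 (-0.14) are less reduced than in SDC1 siRNA replicates 1 and 2.

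Of 16 further MMP genes measured, 1 was higher (MMP13), 1 lower (MMP12) and 14 did not pass, with a median log2 fold change of -0.03, against 28.2% of all genes called. Only 3 of the 16 were in the brightest class and 5 were in the dimmest, in which 4.89% of all genes were called. Genes that act in the activation of MMPs went both ways, 4 of 10 lower and 2 higher, with a median of -0.08, and 6 of the 10 were in the brightest class, in which 41.5% of all genes were called. PLAU, the urokinase that generates plasmin, fell by 0.81 on the log2 scale (SE 0.0619, limma adjusted p = 3.91e-05) and its receptor PLAUR by 0.49. FURIN, the convertase that activates MMP14 inside the cell, fell by 0.48 and ST14, a membrane serine protease, by 0.19, while PCSK5, another convertase, rose by 0.61 and PLAT, the tissue plasminogen activator, by 0.57. The ST14 call was kept in 4 of 14 alternative settings.

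The list of genes that restrain, clear or dock MMPs, which also holds the MMP inducer BSG, had 2 of 11 higher and 3 lower, with a median of 0.04. That share is near the 41.5% called in the brightest class, which held 7 of the 11. THBS2, thrombospondin-2, a matrix protein that helps to clear MMP2, rose by 1.18 on the log2 scale (SE 0.061, limma adjusted p = 5.21e-06). BSG, the MMP inducer basigin or EMMPRIN, fell by 1.60 on the log2 scale (SE 0.124, limma adjusted p = 4.03e-05) and was lowest in SDC1 siRNA replicate 3, at -1.16, against -0.68 and -0.75 in SDC1 siRNA replicates 1 and 2. The hyaluronan receptor CD44, which docks MMP9, fell by 0.68, with single probe sets from -1.76 to 0.07. TFPI2, a serine protease inhibitor, fell by 0.43 and LRP1, an endocytic receptor for proteases, rose by 0.21, with calls kept in 6 and 5 of 14 alternative settings and values of -0.11 for TFPI2 and 0.07 for LRP1 with all probe sets averaged.

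Of the listed inducers of MMP transcription 9 of 19 were lower and 3 higher, with a median of -0.17. Beside IL1A, IL1B fell by 1.97 on the log2 scale (SE 0.137, limma adjusted p = 2.43e-05) and the receptor IL1R1 by 0.93. ETS1, a transcription factor that binds MMP promoters, fell by 1.69 (SE 0.0883, limma adjusted p = 5.69e-06), with -0.16 (adjusted p = 0.396) in a probe set of the middle class. The growth factor HBEGF fell by 0.82 in its bright probe sets and by 0.45 with all its probe sets averaged, the dimmer ones giving -0.10 (adjusted p = 0.682) and -0.05 (adjusted p = 0.808). JUN, a subunit of AP-1, rose by 0.67 in the probe set used for its gene value, with other probe sets from 0.14 to 0.25. Of these 19 genes 17 were in the brightest class, in which 23.3% of all genes were lower.

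Of 6 syndecan sheddases outside the MMP family 2 fell and 0 rose, with a median of -0.20. Of all genes 15.2% were lower, and 23.3% in the brightest class, which held 4 of the 6. ADAM17, which TIMP3 inhibits, fell by 0.69 on the log2 scale (SE 0.0614, limma adjusted p = 8.01e-05) and ADAM10 by 0.33, a call kept in 10 of 14 alternative settings. Among 9 measured substrates of MMPs, 3 fell and 1 rose, with a median of -0.03, and 6 of the 9 were in the brightest class (41.5% called). The 3 that fell include SDC1, the target of the siRNA, whose fall the design intended. SDC4, the related proteoglycan syndecan-4, fell by 0.59 on the log2 scale (SE 0.0896, limma adjusted p = 0.00135). COL1A1, a chain of type I collagen, fell by 0.77 in the probe set used for its gene value, with single probe sets from -1.23 to 0.18, and FN1, fibronectin, rose by 0.41.

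**Figure D5:**
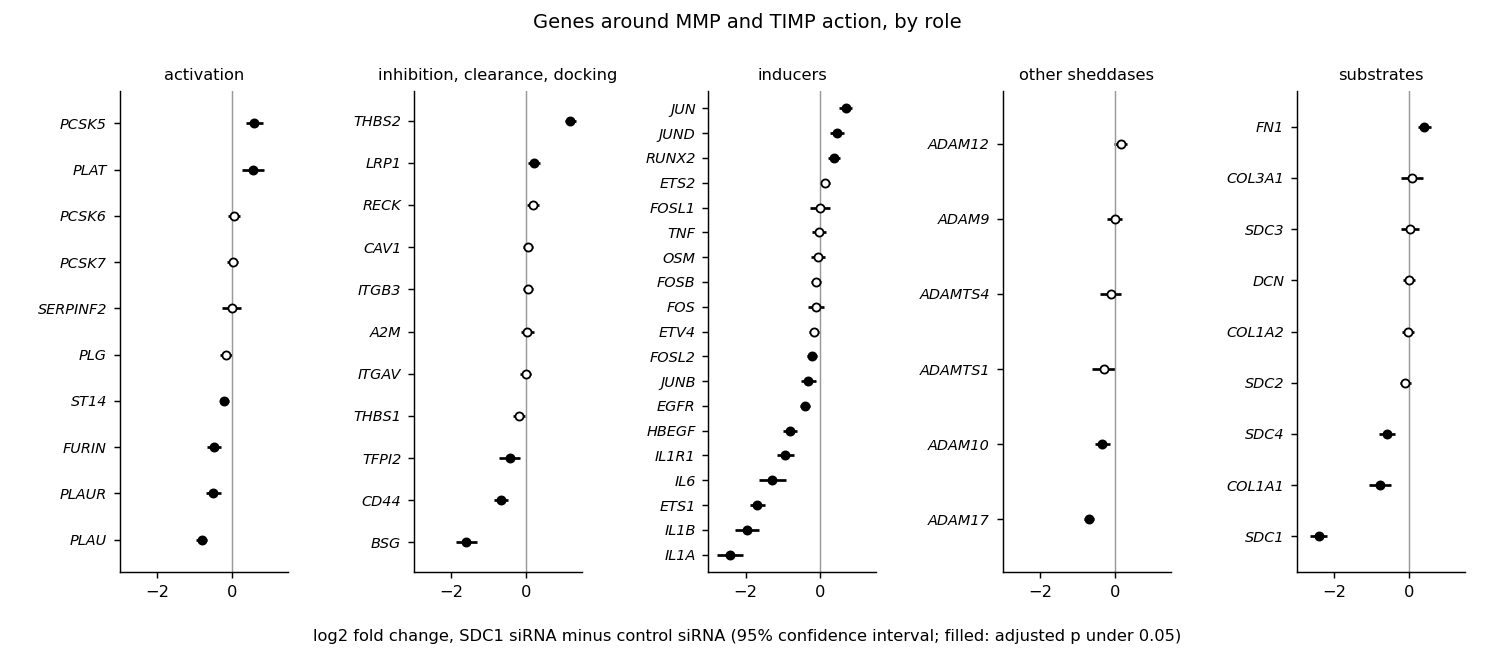
Log2 fold change, SDC1 siRNA minus control siRNA, with its 95% confidence interval (horizontal axes) for the listed genes around MMP and TIMP action, by role, filled where the adjusted p was under 0.05. IL1A, IL1B and ETS1 among the inducers, and BSG, lie below -1.5, and THBS2 above 1.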

How the data were processed

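The deposited values are log2 expression from 6 Affymetrix arrays, for which the authors used RMA (robust multi-array average), per the submitters' processing notes, which give no version. Each of the 54675 probe sets was centred, its median lying no further than 5e-07 from 0; this was read from the values and removes levels. Its brightness class was inferred from the numeric step of the 3 highest values (tolerance 6e-08). Of the brightest class, 15.7% had a coarser step than such levels leave, which means that part of it belongs in a lower class.

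Names came from the annotation of the platform, with current symbols from RefSeq (GRCh38.p14). For a gene, its single-gene probe sets in the brightest class it reached were averaged, with _x_at probe sets used where a gene had no other. Both the genes and all probe sets apart from 62 manufacturer's controls were fitted with limma 3.58.1 in R 4.3.3 (lmFit, eBayes, 2-sided, no covariates), and the fit was tested on simulated data. The number of arrays limits the precision.

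The 10 members, the gene lists and the rule for named genes were chosen with earlier results of these data known. The rule takes all members and their probe sets, SDC1, the other MMP genes past the threshold or neighbouring MMP1, up to 6 genes of each list by lowest p, and the 6 genes nearest to the member of lowest p; of the lists, those past the threshold are named. Listed genes with no single-gene probe set were not analysed here. Alternatives were a block for replicate number or spike-in batch, fits within each batch, each array left out, quantile normalization, a robust, trended prior, omission of the dimmest class and the mean of all probe sets.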

Additional observations from a re-analysis of the deposited data

How the results depend on the processing

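MMP1, TIMP3 and SDC1 kept their direction and call in all 14 alternatives, with ranges of -2.71 to -2.11, 0.58 to 0.75 and -2.63 to -2.17. MMP3 and TIMP2 each kept theirs in 12 of 14 as gene values, but the 1 probe set of MMP3 was called in 8 of 13. Of 139 alternative gene values of single members 124 kept direction and side of the threshold. Among members past no threshold the sign turned for MMP7 (-0.11), MMP9 (-0.0249) and TIMP4 (-0.0021) within batch 2 and in some fits that left out an array, which ranged from -0.0249 to 0.0770 for MMP7, -0.0192 to 0.1310 for MMP9 and -0.0007 to 0.1267 for MMP2. MMP7 has no value without the dimmest class, to which it belongs. The 29 other named genes gave 405 alternative values, of which 355 kept direction and call, 50 lost the call and 0 reversed.

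Correlations of deviations were 0.02, 0.08 and 0.10 between same-numbered arrays, against -0.12 to 0.04 between arrays of different numbers. They are small, and whether replicate numbers pair the samples is not settled by this check. With the replicate block 3 members were lower and 2 higher, MMP14 having an adjusted p of 0.0207, against 0.0691 without it, and all genes called numbered 2928 lower and 2532 higher, against 2997 and 2574. Of 6 arrays, 5 correlated best with their own number. MMP14 also passed under a robust prior with a trend, but its limma adjusted p there rounded to 0.05, the threshold itself. In that setting over all probe sets, 202827_s_at, which gives its gene value, did not pass (limma adjusted p = 0.0651).

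Within spike-in batches, which hold 3 arrays each, fewer calls were made. In batch 1 there were 1 member higher, 4 member probe sets higher, 1504 genes lower and 1166 higher, and 5 other listed genes higher. In batch 2 there were 1 member higher, 1 member probe set lower, 0 member probe sets higher, 1055 genes lower and 840 higher, and of other listed genes 11 lower and 4 higher. The main counts were 2 members, 3 and 7 probe sets, and 22 and 9 listed genes. Member probe sets lower numbered 1 to 2 with an array left out. The count of 0 is from limma; 6 of these probe sets were higher at an unadjusted p under 0.05.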

Other observations

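MMP24OS, an RNA transcribed opposite to the gene of the membrane protease MMP24, was chosen after its values were seen. It was at 0.23, 0.31 and 0.11 in SDC1 siRNA cells, against -0.19, -0.11 and -0.31 in control siRNA cells. The groups did not overlap, as for 41.8% of all genes. MMP24OS is of the brightest class, in which 41.5% of all genes were called. All 4 of its probe sets were higher, by 0.28 to 0.51 on the log2 scale, and the gene rose by 0.42 (SE 0.0773, limma adjusted p = 0.00366). MMP24 itself had a log2 fold change of 0.04 (95% confidence interval -0.16 to 0.24). The antisense gene at another membrane protease, MMP25-AS1, had a log2 fold change of -0.04 (95% confidence interval -0.26 to 0.17).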
